A study of Mus musculus with 6 samples.

Results

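Of 534921 autosomal CpGs covered by at least 10 reads in all 6 samples, 1965 carried more than 400 reads in at least 1 sample after the reads of both strands had been added. These deeply covered CpGs made up 0.367% of the CpGs. They came from reduced representation bisulfite sequencing (RRBS) of neocortex at postnatal day 5, with 3 Chd8+/- samples and 3 wild-type (WT) samples. Chd8 encodes a chromatin remodeller, and Chd8+/- denotes 1 affected copy. The allele, the strain and the sex are not given in the sources used here. Nothing in the labels says whether a group's samples are separate animals, so its spread, on which the p-values rest, may be technical. The genotype itself was not checked in the data. The CpGs were chosen by their coverage, so read counts and read shares are given below as descriptions without a test.

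RRBS cuts DNA at CCGG with MspI and sequences the fragment ends after bisulfite treatment, in which an unmethylated cytosine is read as thymine and a methylated one as cytosine. CpG islands at gene promoters are rich in such sites and are usually unmethylated, while most other CpGs of the mammalian genome are methylated. Where many copies of a repeat stand in the genome but few in the reference assembly, reads from all copies pile up on the few, and the level measured there is a mean over copies. Ribosomal RNA genes, which lie in tandem arrays, and satellite repeats are known examples.

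The deeply covered CpGs were of 3 kinds by position: 10 in a block on chromosome 2, 360 in a single cluster on chromosome 17, and 1595 elsewhere. Whether they were multicopy was not tested, as the tables hold no copy number and the mm39 genome was not used here. The threshold cut through a continuous range of depth, with 132 CpGs having 401 to 410 reads in their deepest sample and 185 having 391 to 400. Just inside it lay chr14:48777067 and chr11:8418810, both with 401 reads, at mean methylation of 18.6% and 0% in Chd8+/-, against 21.9% and 0% in WT. Just outside lay chr10:100016317 and chr2:28150532, both with 400 reads, at 96.0% and 42.0% in Chd8+/-, against 90.1% and 48.9% in WT.

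Part of the 1595 scattered CpGs lay in ordinary promoters. The deposited positions follow mm39 while the promoter sequences at hand, from RefSeq, follow GRCm38.p6, so no coordinate was carried across. Instead, the distances between 9 consecutive listed CpGs were matched to the CpG distances in each RefSeq window from 250 bp before to 50 bp after a gene start. Of the 1281 deeply covered CpGs that stood in such runs, 51 lay in the windows of 18 genes, and all 18 genes were on the matching chromosome. Runs of 8 CpGs matched 22 genes, 21 of them on the matching chromosome, and runs of 7 matched 42, 25 of them on the matching chromosome, so runs of 9 were used. The 3 windows with most deeply covered CpGs are printed below as examples. The match needs 9 consecutive CpGs in a promoter window, so they do not stand for the deeply covered CpGs as a whole. Erbb4 encodes a neuregulin receptor tyrosine kinase (7 deeply covered CpGs, chr1:69108010-69108309), Grik4 a kainate receptor subunit (6, chr9:42944322-42944621) and Kcnk2 a background potassium channel (6, chr1:189343304-189343603). All 3 are on the minus strand of GRCm38.p6 and are printed 5′ to 3′ of the gene, with the deeply covered CpGs as capital CG.
Erbb4: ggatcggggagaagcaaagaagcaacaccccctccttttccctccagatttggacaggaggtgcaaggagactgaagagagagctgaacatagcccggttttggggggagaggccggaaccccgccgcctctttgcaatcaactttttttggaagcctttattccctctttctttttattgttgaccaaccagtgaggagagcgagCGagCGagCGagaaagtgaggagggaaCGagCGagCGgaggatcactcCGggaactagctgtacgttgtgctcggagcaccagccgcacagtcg
Grik4: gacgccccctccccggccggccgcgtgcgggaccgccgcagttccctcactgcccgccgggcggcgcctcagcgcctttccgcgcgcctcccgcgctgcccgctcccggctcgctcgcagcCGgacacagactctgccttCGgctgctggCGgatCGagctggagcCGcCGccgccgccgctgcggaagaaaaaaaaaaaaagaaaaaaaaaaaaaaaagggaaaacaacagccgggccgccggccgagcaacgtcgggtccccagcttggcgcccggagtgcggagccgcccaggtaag
Kcnk2: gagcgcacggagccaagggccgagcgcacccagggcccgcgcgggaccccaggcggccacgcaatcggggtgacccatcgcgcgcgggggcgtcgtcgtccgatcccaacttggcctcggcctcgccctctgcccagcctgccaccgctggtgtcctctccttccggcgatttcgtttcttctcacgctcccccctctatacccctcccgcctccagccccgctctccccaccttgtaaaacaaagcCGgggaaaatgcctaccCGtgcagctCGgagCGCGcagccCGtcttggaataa

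These promoter CpGs were almost free of methylation. The mean over the 7 CpGs of Erbb4 was 0.303%, 0.658% and 0.159% in Chd8+/- samples 1, 2 and 3, against 0%, 0.210% and 0.337% in WT samples 1, 2 and 3, at 197 to 544 reads per CpG and sample. For Grik4 it was 0.106%, 0.430% and 0% in Chd8+/- samples, against 0.0611%, 0.173% and 0.445% in WT samples. For Kcnk2 it was 0.240%, 0.502% and 0.230% in Chd8+/- samples, against 0.0577%, 0.0270% and 0.324% in WT samples. The groups overlapped at all 3 genes. A further 4 windows held 5 deeply covered CpGs each: Ddx20, which encodes an RNA helicase of the SMN complex, Ndufa9, a subunit of mitochondrial complex I, Tprgl, a synaptic vesicle protein, and Zfhx2, a zinc finger homeobox factor. The remaining windows, of Eif3k, Map4k1, Dpcd, Camkmt, Prepl, Eaf2, Gtf2i, Immt, Klhl28, Togaram1 and Stk32b, held 1 to 4. The divergent pairs Eif3k and Map4k1, Camkmt and Prepl, and Klhl28 and Togaram1 share their deeply covered CpGs. Over all 18 genes the group mean was at most 1.69%, and no CpG exceeded 843 reads in a sample.

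Depth was uneven between libraries also over all autosomal CpGs with at least 10 reads in all 6 samples. The median number of merged reads per autosomal CpG was 37, 31 and 35 in Chd8+/- samples 1, 2 and 3, against 47, 51 and 42 in WT samples 1, 2 and 3. Coverage summed over all listed cytosines ran from 32285980 to 39820333 in Chd8+/- libraries and from 45498222 to 54818138 in WT libraries. Chromosome X took 2.56% of reads in Chd8+/- sample 3 and 2.58% in WT sample 3, against 1.18% to 1.21% in the other libraries. More than 400 reads were reached by 1001, 627 and 576 CpGs in the Chd8+/- samples and by 719, 1687 and 812 in the WT samples. Only 462 CpGs passed 400 reads in all 6 samples, while 933 passed it in just 1, and for 750 of these that sample was WT 2, the deepest library. With reads scaled to equal library totals, 1604 CpGs passed.

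Joining CpGs at most 1000 bp apart gave 907 clusters. A single CpG made up 541 of them, 2 CpGs 202, 3 CpGs 86, and 4 to 8 CpGs 75. The other 3 clusters held 360, 18 and 15 CpGs and lay on chromosomes 17, 11 and 5. By chromosome, the deeply covered share of the covered CpGs ran from 0.224% on chromosome 2 to 1.71% on chromosome 17. Without the chromosome 2 block and the chromosome 17 cluster, the share ran from 0.1997% to 0.451%.

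The kinds differed in depth and in methylation level, as the plot of depth against level shows. Among the scattered CpGs, 1004 of 1595 had at most 500 reads in their deepest sample and 67 had more than 1000. For all autosomal CpGs the median of the highest reads was 65 and the 90th percentile 145. Of the 1528 scattered CpGs with at most 1000 reads, 828 (54.2%) had a mean level under 5%, against 33.2% of the CpGs that were not deeply covered. Of the 67 with more than 1000 reads, 54 (80.6%) lay between 20% and 80%. The same range held 335 of the 360 CpGs (93.1%) of the chromosome 17 cluster, against 22.7% of the CpGs that were not deeply covered.

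**Figure D1:**
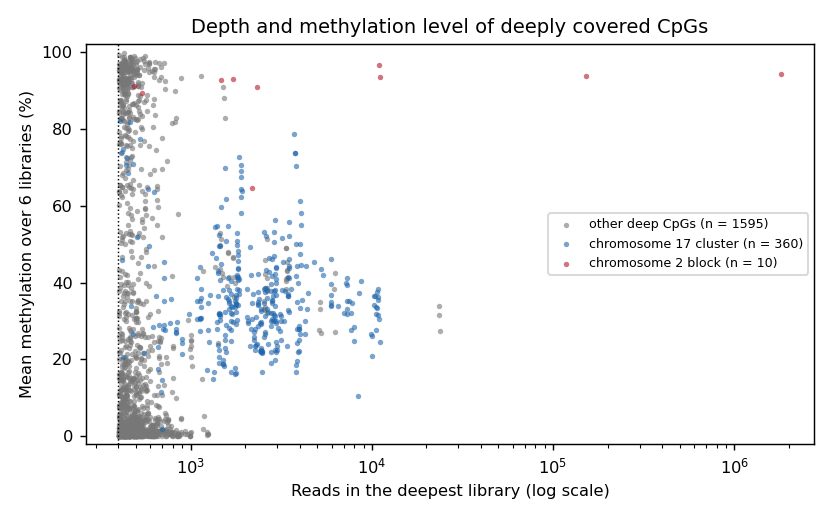
Each point is 1 of the 1965 deeply covered CpGs, with its reads in the deepest library on a log axis and its mean methylation over the 6 libraries in percent; the dotted line marks 400 reads. The chromosome 17 cluster forms a cloud at intermediate level, the chromosome 2 block lies above 80% apart from 1 CpG at 64.5%, and scattered CpGs of at most 1000 reads cover the whole range with most under 5%.

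CpG density also differed between the kinds. The median number of listed CpGs within 250 bp on either side was 10 for all deeply covered CpGs. It was 9.5 in the chromosome 2 block, 50 in the chromosome 17 cluster, 22 for scattered CpGs with more than 1000 reads and 7 for those with at most 1000, against 5 for the CpGs that were not deeply covered. More than 99% of listed reads came from 1 strand at 1294 of the 1965 deeply covered CpGs (65.9%), against 79.1% of the other CpGs. A strand is listed only where it has at least 10 reads.

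The chromosome 2 block spanned chr2:98492901-98497494 (mm39), 4594 bp, and held 49.5% of all reads on deeply covered CpGs. Its cluster chr2:98496607-98497494 of 6 CpGs was the deepest of all clusters, with 8113708 reads over the 6 samples, and chr2:98492901-98493201 of 4 CpGs was the third with 706549. A single CpG, chr2:98496848, held 44.9% of the reads on deeply covered CpGs. It had 1644742, 1175439 and 1241117 reads in Chd8+/- samples 1, 2 and 3, against 846524, 1272921 and 1817773 in WT samples 1, 2 and 3. These reads were 2.53% to 5.61% of all autosomal CpG reads of a library, and nearly all came from the reverse strand. The groups overlapped, with WT 3 highest and WT 1 lowest.

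The block was highly methylated. At chr2:98496848 the level was 93.9%, 94.1% and 94.7% in Chd8+/- samples, against 94.5%, 93.9% and 94.4% in WT samples, so the groups overlapped. The means were 94.3% ± 0.401 in Chd8+/- and 94.2% ± 0.322 in WT (SD, n = 3 each), with an adjusted p of 1 in edgeR's quasi-likelihood test with Benjamini-Hochberg adjustment. Read counts alone would give an SD of 0.0202 points in Chd8+/- and 0.0213 in WT, which is 19.8 and 15.1 times smaller than observed. Reads without molecular identifiers need not be separate molecules, so this expectation covers counting error only.

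The second deepest CpG, chr2:98493139, had 140738, 100259 and 106955 reads in Chd8+/- samples, against 74507, 108809 and 151588 in WT samples. Its levels were 93.2%, 93.5% and 94.2% in Chd8+/- samples, against 94.2%, 93.6% and 93.9% in WT samples. Over all 10 CpGs of the block the level averaged 90.4%, 90.1% and 90.2% in Chd8+/- samples, against 92.3%, 89.4% and 86.8% in WT samples. The Chd8+/- values lay inside the WT range, whose ends were WT 1 and WT 3, the libraries with the smallest and the largest share of reads there. Counting each read once, the block stood at 93.9%, 94.0% and 94.6% in Chd8+/- samples, against 94.4%, 93.8% and 94.3% in WT samples. By reads, WT 1 and WT 3 were thus not the ends.

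Deeply covered CpGs took 11.6%, 10.5% and 8.99% of autosomal CpG reads in Chd8+/- samples 1, 2 and 3, against 7.58%, 8.36% and 11.1% in WT samples 1, 2 and 3. The means were 10.4% ± 1.30 in Chd8+/- and 9.02% ± 1.86 in WT (SD, n = 3 each), a difference of 1.33 points that was smaller than the WT spread. Without WT sample 1 it was 0.615 points, without Chd8+/- sample 1 it was 0.714, without Chd8+/- sample 3 it was 2.01, and without WT sample 3 it was 2.38. The chromosome 2 block gave 6.06%, 5.15% and 5.002% in Chd8+/- samples, against 2.81%, 3.77% and 6.16% in WT samples. The chromosome 17 cluster gave 2.98%, 2.87% and 1.95% in Chd8+/- samples, against 2.74%, 2.24% and 2.80% in WT samples. The scattered CpGs gave 2.56%, 2.45% and 2.04% in Chd8+/- samples, against 2.04%, 2.34% and 2.16% in WT samples. The groups overlapped in all 3 kinds, and with the chromosome 2 block left out the difference in share was 0.176 points.

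**Figure D2:**
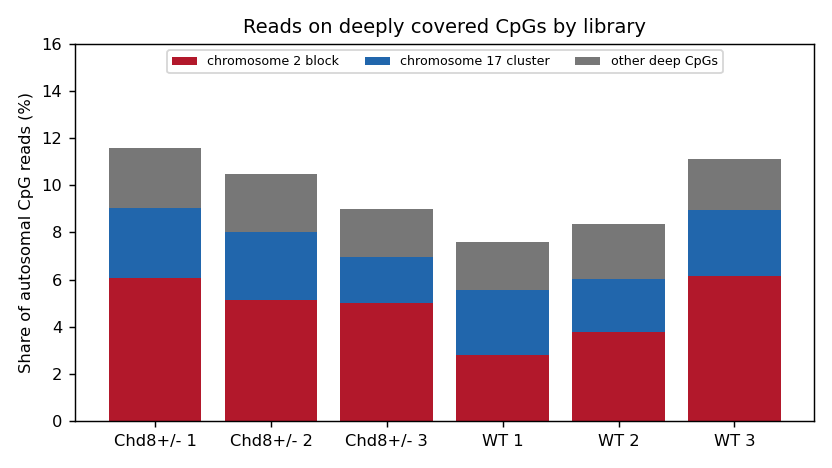
Stacked bars give the percent of autosomal CpG reads on deeply covered CpGs in each of the 3 Chd8+/- and 3 WT libraries, divided into the chromosome 2 block, the chromosome 17 cluster and all other deeply covered CpGs. The total runs from 7.58% in WT 1 to 11.6% in Chd8+/- 1, and the chromosome 2 block runs from 2.81% in WT 1 to 6.16% in WT 3.

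The chromosome 17 cluster, chr17:40153905-40159690 (mm39), held 360 deeply covered CpGs in 5786 bp, with a median of 7 bp between neighbours and 4807699 reads over the 6 samples. Single CpGs had 10 to 11087 reads per sample. The RefSeq gene table, on GRCm38, places the pseudogene Rn18s-rs5, a sequence related to 18S ribosomal RNA, on chromosome 17. Whether the cluster overlaps it was not tested, since the builds differ. The median level over its CpGs was 34.1%, and single CpGs ran from 1.97% to 81.9%.

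The cluster averaged 39.99%, 44.7% and 32.9% methylation in Chd8+/- samples 1, 2 and 3, against 34.4%, 27.6% and 38.0% in WT samples 1, 2 and 3. The mean was 39.2% ± 5.92 in Chd8+/- and 33.3% ± 5.30 in WT (SD, n = 3 each), a difference of 5.86 points that was about as large as the spread within a group. The groups overlapped, with Chd8+/- sample 3 below WT samples 1 and 3. WT sample 2 was the lowest library at 292 of the 360 CpGs and Chd8+/- sample 2 the highest at 292. Without WT sample 2 the difference was 2.98 points, without Chd8+/- sample 2 it was 3.13, and without Chd8+/- sample 3 it was 9.002.

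In each of 12 stretches of 500 bp the Chd8+/- mean was above the WT mean, by 2.66 to 7.89 points. The Chd8+/- mean was above the WT mean at 339 of the 360 CpGs, against 54.6% of all autosomal CpGs at 20% to 80%. The groups did not overlap, with Chd8+/- higher, at 41 of the 360 CpGs, against 6.26% of the autosomal CpGs at 20% to 80%. CpGs of 1 cluster share fragments and libraries and are not independent. Taken CpG by CpG rather than for the cluster mean, the SD between samples was 7.99 points in Chd8+/- and 6.36 in WT. This is 4.57 and 5.25 times the SD expected from read counts alone.

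**Figure D3:**
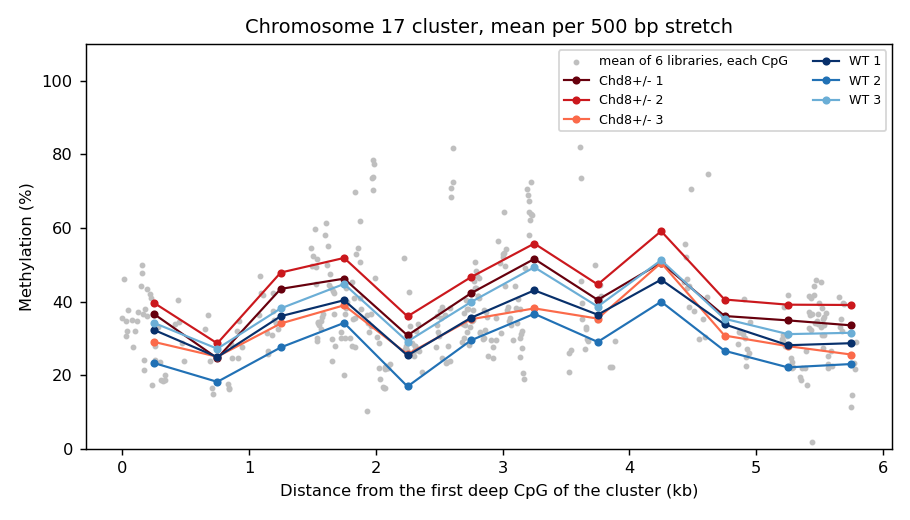
Methylation in percent along the chromosome 17 cluster against the distance from its first deeply covered CpG in kb: grey points are the mean of the 6 libraries at each CpG, and lines join each library's mean per stretch of 500 bp, with Chd8+/- in reds and WT in blues. The line of Chd8+/- 2 is the highest and that of WT 2 the lowest in each of the 12 stretches.

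Within the cluster, chr17:40155832 was the deepest of the CpGs under 20%. Its levels were 12.4%, 13.9% and 11.3% in Chd8+/- samples, against 8.38%, 6.63% and 9.70% in WT samples, so all Chd8+/- values lay above all WT values. Its adjusted p was 1 in edgeR's quasi-likelihood test with Benjamini-Hochberg adjustment. At the next deepest of this class, chr17:40159249, the levels were 26.9%, 33.1% and 13.3% in Chd8+/- samples, against 17.4%, 10.97% and 15.5% in WT samples, and the groups overlapped. The neighbouring CpG chr17:40159259 was the third.

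Intermediate methylation recurred at other very deep clusters. Of the scattered CpGs at 20% to 80%, 54 had more than 1000 reads and 241 had at most 1000. Taken CpG by CpG, the SD between samples at the 54 was 9.89 points in Chd8+/- and 5.16 in WT. At the 241 it was 7.95 in Chd8+/- and 8.09 in WT. Against the SD expected from read counts alone, this was 7.28 and 4.48 times as large at the 54. At the 241 it was 2.94 and 3.20 times as large, so the spread beyond counting error was smaller there. The cluster chr5:146197822-146198104 of 15 CpGs, the fourth by depth with 409645 reads, averaged 40.4%, 38.7% and 26.3% in Chd8+/- samples, against 30.9%, 26.4% and 31.8% in WT samples. The cluster chr11:108902524-108902810 of 18 CpGs, the fifth with 260194 reads, averaged 47.8%, 51.2% and 32.4% in Chd8+/- samples, against 39.3%, 34.3% and 42.1% in WT samples. At both, Chd8+/- samples 1 and 2 were above and Chd8+/- sample 3 below the WT range. The deepest scattered CpG, chr5:146197987, had 21579, 18065 and 12400 reads in Chd8+/- samples and levels of 34.3%, 37.4% and 21.0%, against 17330, 13261 and 23751 reads in WT samples and levels of 22.8%, 21.2% and 27.4%. The next 2 deepest, chr5:146197992 and chr5:146197998, are its neighbours in the same cluster.

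Altogether 6 clusters outside chromosome 17 held at least 3 CpGs with more than 1000 reads at 20% to 80%, a criterion chosen after the values were seen. The other four were chr13:45023108-45023130, chr16:57211955-57211999, chr18:68825193-68825224 and chr8:3804409-3804451. In all 6 the mean was higher in Chd8+/-, against 54.6% of all single autosomal CpGs at 20% to 80%. The highest library was Chd8+/- 1 or 2, and the lowest was WT 2 or Chd8+/- 3. These clusters were measured in the same 6 libraries as the chromosome 17 cluster, so they are not independent comparisons of the genotypes. At chr8:3804409-3804451 the levels were 34.9%, 39.96% and 33.4% in Chd8+/- samples, against 25.7%, 21.0% and 28.7% in WT samples, and the groups did not overlap. At chr16:57211955-57211999 the levels were 51.3%, 56.1% and 40.4% in Chd8+/- samples, against 48.6%, 40.6% and 41.8% in WT samples. At the remaining pair the groups overlapped as well, with Chd8+/- sample 3 below 2 of the WT samples.

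**Figure D4:**
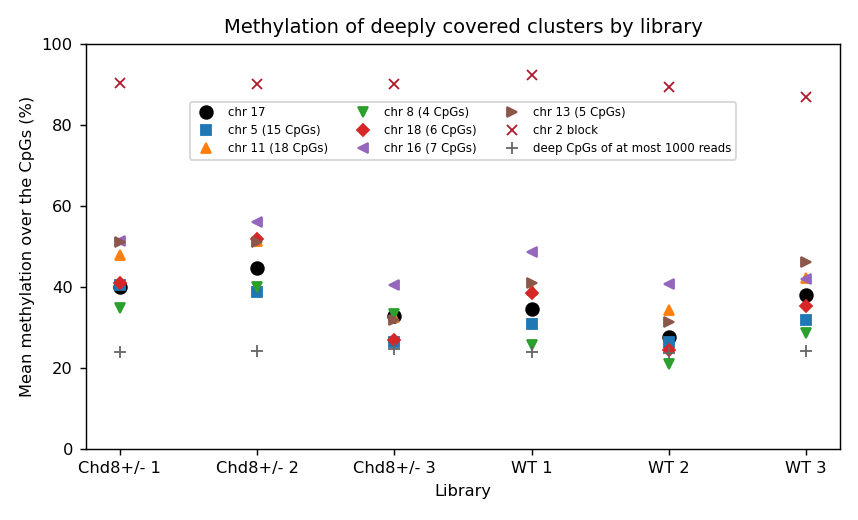
Mean methylation in percent over the CpGs of each deep cluster, one column of symbols per library, with Chd8+/- libraries left of WT libraries. The lowest library is WT 2 for the chromosome 17 cluster and WT 2 or Chd8+/- 3 for the 6 other intermediate clusters, while the chromosome 2 block stays between 86.8% and 92.3% and the scattered CpGs of at most 1000 reads between 23.6% and 24.6%.

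Averaged without weights over all deeply covered CpGs, methylation was 27.9%, 28.9% and 26.7% in Chd8+/- samples, against 26.6%, 24.9% and 27.4% in WT samples. The means were 27.8% ± 1.08 in Chd8+/- and 26.3% ± 1.27 in WT (SD, n = 3 each), and the groups overlapped. The difference of 1.53 points was 0.561 with the chromosome 17 cluster left out, against 0.595 over the CpGs that were not deeply covered. Without WT sample 2 it was 0.830 and without Chd8+/- sample 2 it was 1.01. The scattered CpGs of at most 1000 reads averaged 24.0%, 24.0% and 24.6% in Chd8+/- samples, against 24.0%, 23.6% and 24.0% in WT samples. Scattered CpGs of more than 1000 reads averaged 42.3%, 44.6% and 31.2% in Chd8+/- samples, against 36.2%, 30.7% and 36.7% in WT samples. This compares means over many CpGs, and at single scattered CpGs of at most 1000 reads at 20% to 80% the SD between samples was as wide as given above.

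No deeply covered CpG passed an adjusted p of 0.05 in edgeR's quasi-likelihood test with Benjamini-Hochberg adjustment over 418119 CpGs, of which 0% were called. On simulated counts with the real coverage, large changes at single CpGs of intermediate level rarely passed that threshold. The absence of calls therefore does not show that levels were equal. The simulation used fewer CpGs and an assumed spread between samples. It changed no CpG near 0%, so it does not cover those. CpGs at 0% or 100% in all 6 samples were not tested, which left 1881 of the 1965. At an unadjusted p under 0.05 stood 206 of these (10.95%), against 3.59% of all CpGs tested. They were 109 higher in Chd8+/-, against 2.09% of all CpGs tested, and 97 lower, against 1.5%. Of the 206, 190 stood among the 751 tested at a mean level under 5% (25.3%), against 5.24% of all CpGs tested at that level. The chromosome 17 cluster had 6 of 360, the chromosome 2 block 0 of 10 and the scattered CpGs 200 of 1511. By limma on log2 ratios no CpG was called either, and 26 of the 1881 stood at an unadjusted p under 0.05, against 5.17% of all CpGs tested. The share of deeply covered CpGs was thus higher than that of all CpGs by edgeR and lower by limma. Such a p also depends on the number of reads, by which these CpGs were chosen.

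The smallest p-values were at CpGs close to 0%. At chr12:104438832 the level was 1.52%, 1.25% and 0.940% in Chd8+/- samples, against 0% in each WT sample. The opposite held at chr12:38829684, with 0% in each Chd8+/- sample, against 2.03%, 2.02% and 1.46% in WT samples, and at chr4:63328092, with 0% in each Chd8+/- sample, against 2.15%, 1.26% and 1.47% in WT samples. The adjusted p was 0.765 at each of the 3 in edgeR's quasi-likelihood test with Benjamini-Hochberg adjustment.

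The question for the whole table was how far the deeply covered CpGs move the genotype difference in mean methylation. Counting each CpG once, the difference was 0.599 points with them and 0.595 points without them. By an exact permutation test, two-sided, both had p = 0.1, the smallest that 3 against 3 allows, and the groups did not overlap, with Chd8+/- higher. Over all CpGs the mean was 47.83%, 48.09% and 49.00% in Chd8+/- samples, against 47.74%, 47.70% and 47.69% in WT samples. The SD was 0.614 points in Chd8+/- and 0.0247 in WT (n = 3 each), so the difference was smaller than the Chd8+/- spread. With chromosomes X and Y included, the difference over all CpGs was 0.598 points with p = 0.2 by the same exact test. Without Chd8+/- sample 3 the difference over all CpGs was 0.252 points. The deeply covered CpGs were 0.367% of the CpGs, so counted once each they could hardly move this difference.

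Counting each read once, the mean was 49.8%, 51.5% and 54.8% in Chd8+/- samples, against 48.3%, 47.2% and 50.7% in WT samples. The means were 52.0% ± 2.55 in Chd8+/- and 48.7% ± 1.78 in WT (SD, n = 3 each), a difference of 3.30 points with p = 0.2 by the same exact test. With the deeply covered CpGs left out, the mean was 47.7%, 49.9% and 53.7% in Chd8+/- samples, against 47.8%, 46.4% and 48.7% in WT samples. The difference was then 2.83 points, with p = 0.3 by the same exact test. The groups overlapped both with and without them, and neither p passed 0.05, which the design cannot reach. Without Chd8+/- sample 3 the difference was 1.92 points with the deeply covered CpGs and 1.198 without them.

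Leaving them out lowered the weighted difference by 0.466 points. The gap between the weighted and the unweighted difference was 2.70 points with them and 2.23 points without them. In each library they raised the read-weighted mean, by 2.02, 1.60 and 1.05 points in Chd8+/- samples, against 0.469, 0.802 and 2.01 points in WT samples. The rise in WT sample 3 was as large as in Chd8+/- sample 1, and these were the libraries with the largest shares of reads on deeply covered CpGs. Over the deeply covered CpGs alone the read-weighted mean was 65.2%, 65.3% and 65.4% in Chd8+/- samples, against 54.0%, 56.0% and 66.8% in WT samples.

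**Figure D5:**
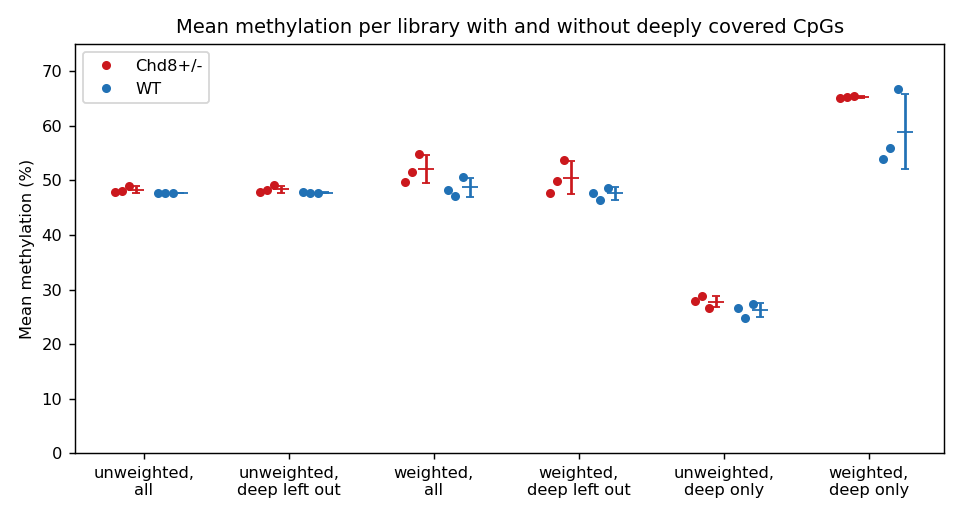
Mean methylation per library in percent, without weights and weighted by reads, over all autosomal CpGs, with the deeply covered CpGs left out, and over the deeply covered CpGs only. Points are single libraries, Chd8+/- left of WT in each set, and bars are the mean and SD of 3 libraries; leaving the deeply covered CpGs out lowers the read-weighted means but keeps the higher Chd8+/- average.

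The difference of 3.30 points was divided by adding up, over the CpGs of each kind, the share of reads times the level. Deeply covered CpGs gave 1.36 points (41.2%) and all other CpGs 1.94 points. With each CpG given the same share of reads in every library, deeply covered CpGs gave 0.205 points, and the other 1.15 points came from unequal shares of reads. The chromosome 2 block gave 1.09 points in all, and at equal shares its part was -0.000301 points. The chromosome 17 cluster gave 0.194 points, of which 0.168 stayed at equal shares, and the scattered CpGs 0.0779 points.

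A part removed in this sum is not the same as CpGs left out, because the remaining shares then grow. Left out one at a time, the 5 deepest clusters lowered the weighted difference by 0.372 points for chr2:98496607-98497494, 0.121 for the chromosome 17 cluster, 0.0306 for chr2:98492901-98493201, 0.00674 for the chromosome 11 cluster and 0.00297 for the chromosome 5 cluster. These were also the 5 clusters that moved it most. Over all CpGs, 2.54 of the 3.30 points (77.1%) came from unequal shares of reads and 0.756 stayed at equal shares, close to the unweighted 0.599.

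Unequal shares were also found outside the deeply covered CpGs. Among the other CpGs, those with more than 20 listed CpGs within 250 bp on either side took 13.6%, 12.6% and 11.6% of reads in Chd8+/- samples, against 13.8%, 15.3% and 13.3% in WT samples. Those with 1 to 5 took 52.2%, 54.4% and 55.9% in Chd8+/- samples, against 52.5%, 50.05% and 52.8% in WT samples. The groups overlapped in both density classes. Chd8+/- libraries were also the shallower ones, and the part of depth or genotype in these shares cannot be told apart.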

How the data were processed

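DNA of 6 neocortex samples was digested with MspI, size-selected and converted with bisulfite, per the labels' protocols. Bismark 0.20.0, Trim Galore 0.4.4, SAMtools 1.9 and the mm39 build are listed in the submitters' processing notes. Their settings, and any removal of duplicate reads, are not given in the sources used here. Per the file headers, each deposited table lists coverage, a count of reads per cytosine and strand (lowest value 10), and the percent read as C and as T. Coverage times percent gave whole methylated reads within 0.02 for nearly all cytosines (99.955% or more in each library) and was rounded. The listed percent is itself rounded, so the recovered count is less exact at deeply covered cytosines. A read that spans several CpGs is counted at every one.

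Strands were merged by adding reads, and CpGs on the 19 autosomes with at least 10 merged reads in all 6 samples were kept. The threshold of 400 reads, the clusters and the lists were chosen with earlier results of these data known. Read-weighted levels are methylated reads over all reads. Shares of reads held equal are each CpG's mean share over the 6 samples. Group means were compared by exact permutation tests. Each CpG was tested with edgeR 4.0.16 (quasi-likelihood test on methylated and unmethylated counts with a coverage term for each sample, Benjamini-Hochberg adjustment) in R 4.3.3, with limma 3.58.1 as an alternative. Both were tested on simulated data, in which large known changes at intermediate levels mostly came out at an unadjusted p under 0.05 and in the right direction, but hardly any passed the adjusted threshold. Python 3.11.15, numpy 2.4.6, pandas 2.3.3 and matplotlib 3.10.9 were used otherwise.

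The CpGs and clusters named were the 5 clusters with most reads, the 3 deepest CpGs in each of the level classes under 20%, 20% to 80% and over 80%, the 3 with the smallest edgeR p, the 5 clusters that moved the read-weighted difference most, and the 2 CpGs on either side of the threshold. Promoters were named by the CpG spacing match, and 4 intermediate clusters after their values were seen. Alternatives were other thresholds, a minimum of 20 reads, strands kept apart, chromosomes X and Y included, capped or equal read weights, other cluster gaps, each sample omitted in turn, the replicate number as a block and no filter on constant CpGs. Leaving out the chromosome 2 block or the chromosome 17 cluster, and the threshold on scaled reads, were added after the data were seen. Conversion statistics were not used.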

Additional observations from a re-analysis of the deposited data

Results flagged for a closer look

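Sequences outside the numbered chromosomes were not part of the comparisons, but 226 CpGs there passed the same threshold. An unplaced scaffold held 113 such CpGs out of 130 covered, with up to 39059 reads in a sample. Their mean level was 35.8%, 36.2% and 32.6% in Chd8+/- samples 1, 2 and 3, against 30.9%, 29.8% and 34.6% in WT samples 1, 2 and 3, and the groups overlapped. WT sample 2 was the lowest library and Chd8+/- sample 2 the highest, as in the chromosome 17 cluster. A second unplaced scaffold held 20 out of 42, at 72.2%, 72.9% and 72.4% in Chd8+/- samples, against 71.4%, 68.0% and 68.7% in WT samples, where the groups did not overlap and the difference was not tested. Both were flagged because they carry signal in data no comparison used. The remaining CpGs outside the autosomes lay mainly on chromosome Y (47), chromosome X (25) and the mitochondrial genome (19).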

How the results depend on the processing

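The number of deeply covered CpGs was set by the threshold: 21205 had over 200 reads in at least 1 sample, 392 over 1000, and 462 over 400 in all 6. Their unweighted difference was 5.86 points at over 1000 reads and 5.12 at over 400 in all 6, against 1.53. Most of the 392 lay in the chromosome 17 cluster, since 67 were scattered and the chromosome 2 block held 10. That cluster differed by 5.86 points on its own, and the 67 scattered CpGs by 4.88. The number at an unadjusted p under 0.05 was 26 by limma and 110 at a minimum of 20 reads, against 206 by edgeR. In total 94 other values kept their direction and side of the threshold, or stayed within the spread between replicates. Among them are the differences of means under the replicate block, which were bound to stay the same. With each sample left out in turn, the unweighted difference was 0.252 to 0.837, the weighted one 1.92 to 4.43, that without deeply covered CpGs 1.198 to 4.19, that over deeply covered CpGs 0.830 to 2.09, the chromosome 17 difference 2.98 to 9.002, the difference in share 0.615 to 2.38, the calls 0 to 0 and the number at an unadjusted p under 0.05 204 to 283. The smallest adjusted p of a deeply covered CpG in edgeR's quasi-likelihood test was 0.765 with all 6 samples. It was 0.0546 without Chd8+/- sample 1 and 0.0618 without Chd8+/- sample 3, close to the threshold. Without any 1 of the other samples it was 0.171 to 0.307. Weights capped at 400 reads gave a weighted difference of 2.73 (exact permutation p = 0.3), and equal weights 0.756 (exact permutation p = 0.1). Same-numbered samples did not deviate together over all CpGs (correlations of 0.00456, 0.000833 and 0.00233). Over the deeply covered CpGs the correlations were -0.0825, -0.487 and -0.313. Sample 3 of both groups did share a higher share of reads on chromosome X. Whether the numbers pair the samples is therefore not settled by these values. The replicate block cannot change a difference of group means, so the weighted difference stayed at 3.30 (exact permutation p = 0.25, the smallest that 3 pairs allow). In edgeR the block made no call and gave 217 at an unadjusted p under 0.05. Depth limits the CpGs near 0%, where a few reads set the level.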
